A study of Homo sapiens with 6 samples.

Results

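The transcripts of 10 immediate early genes, of the 19571 genes in the deposited expression table, were compared between LNCaP cells labelled as carrying KDM4B and vector cells. They were taken by symbol from a list of names (FOS, FOSB, JUN, JUNB, JUND, EGR1, ATF3, KLF4, KLF6 and IER2), and all 10 were found once each. LNCaP is a cell line from a human prostate cancer that responds to androgen. The first group of 3 libraries (replicates 1, 2 and 4) came, per the labels, from cells stably overexpressing Flag-KDM4B, a tagged histone lysine demethylase. The second group of 3 libraries (replicates 1, 2 and 3) came from cells with the plenti6 control plasmid. Both groups were grown in RPMI medium with FBS and were moved for 3 days before harvest to RPMI with 10% of a serum that the labels call CFBS. The labels give neither the number of clones per line nor whether replicates were separate cultures, so p-values measure only the spread between these libraries, which may be technical.

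Immediate early genes are switched on within minutes of a growth factor, serum or stress signal, without new protein synthesis, and their short-lived transcripts fade soon after. Mitogen-activated kinases reach them through serum response factor with its ETS partners, which bind CArG boxes, and through CREB, ATF and JUN proteins, which bind cyclic AMP response elements and related sites. FOS and FOSB pair with JUN, JUNB or JUND to form the AP-1 transcription factor, and JUN proteins can also pair with each other or with ATF proteins. In prostate cells AP-1 proteins interact with androgen receptor signalling, and KLF6 and KLF4 have been studied as growth regulators of prostate tumours.

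Promoter sequences are shown because such elements are known to link early genes to kinase pathways. They are the 250 bases upstream of the annotated start, for the 4 lower members that hold TGACATCA or TGACGTCA, and for EGR1. Of ATF or CREB type elements, only these exact runs were searched. The sequences are RefSeq's, on GRCh38.p14, and all 10 members were matched, with 11 windows because ATF3 has 2 annotated starts. Each runs 5′ to 3′ towards the gene. Capitals mark TGACATCA in JUN, ATF3 and KLF6, TGACGTCA in JUND, and the CArG boxes in EGR1.

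JUN, chr1:58784048-58784297, minus strand: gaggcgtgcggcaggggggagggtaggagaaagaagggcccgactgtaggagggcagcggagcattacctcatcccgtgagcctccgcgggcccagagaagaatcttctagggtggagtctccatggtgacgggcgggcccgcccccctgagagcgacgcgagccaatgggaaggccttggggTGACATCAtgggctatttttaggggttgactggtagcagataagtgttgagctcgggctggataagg
ATF3, upstream start, chr1:212565157-212565406, plus strand: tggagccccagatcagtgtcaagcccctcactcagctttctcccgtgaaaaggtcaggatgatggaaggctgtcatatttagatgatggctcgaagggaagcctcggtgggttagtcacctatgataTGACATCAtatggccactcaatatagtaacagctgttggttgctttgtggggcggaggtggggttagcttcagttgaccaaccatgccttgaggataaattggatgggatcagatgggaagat
KLF6, chr10:3785210-3785459, minus strand: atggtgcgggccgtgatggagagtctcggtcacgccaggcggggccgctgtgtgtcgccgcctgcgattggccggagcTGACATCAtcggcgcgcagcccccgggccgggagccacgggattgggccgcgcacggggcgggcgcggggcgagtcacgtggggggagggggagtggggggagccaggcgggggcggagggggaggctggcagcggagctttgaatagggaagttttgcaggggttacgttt
JUND, chr19:18281623-18281872, minus strand: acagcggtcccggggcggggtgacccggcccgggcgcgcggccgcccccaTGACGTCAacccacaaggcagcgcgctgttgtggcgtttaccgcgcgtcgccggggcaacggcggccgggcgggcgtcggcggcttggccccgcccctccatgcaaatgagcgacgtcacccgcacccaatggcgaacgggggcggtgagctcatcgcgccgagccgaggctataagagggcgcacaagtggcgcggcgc
EGR1, chr5:138465229-138465478, plus strand: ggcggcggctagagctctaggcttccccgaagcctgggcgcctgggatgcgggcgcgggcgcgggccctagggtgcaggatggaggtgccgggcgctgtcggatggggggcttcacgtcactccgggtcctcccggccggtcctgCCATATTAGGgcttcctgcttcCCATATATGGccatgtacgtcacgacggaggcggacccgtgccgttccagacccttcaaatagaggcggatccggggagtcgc

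The motifs were searched on both strands after the sequences had been seen. TGACATCA lay at bases 184 to 191 of the JUN window, 128 to 135 of the ATF3 window and 79 to 86 of the KLF6 window. TGACGTCA lay at bases 51 to 58 of the JUND window. EGR1 held CArG boxes at bases 146 to 155 and 168 to 177. The other 6 windows, including the second ATF3 start, held none of these motifs. TGANTCA, with N any base, was in 0 of the 11 windows, and it is wider than the AP-1 element, TGACTCA or TGAGTCA. The shorter run TGACGT was not part of the search. TGACGT is part of the TGACGTCA of JUND, which was called lower. The windows of FOS, FOSB and EGR1, none called lower, also hold TGACGT when both strands are read. Over all 35116 RefSeq windows of this length, TGACATCA was in 2.37%, TGACGTCA in 1.65%, TGANTCA in 6.57% and a CArG box in 1.16%. Among 514 tested genes with either of the first pair of motifs, 36.0% were lower and 33.5% higher after scaling, beside 35.9% and 32.6% of all 9719 tested genes with a window. A match is a run of letters and does not show that a factor binds there.

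Several features of the whole data set touch every value that follows. KDM4B itself measured 26.3, 27.2 and 25.8 FPKM (fragments per kilobase of transcript, scaled to library size) in its labelled libraries and 24.7, 25.2 and 25.3 FPKM in the vector libraries, with a log2 fold change of 0.07 (limma, adjusted p = 0.113) as deposited and of 0.29 after scaling (adjusted p = 2.86e-05). The groups are therefore named by their labels. Only the titles of the first group carry a suffix, so a batch it may mark and the group cannot be told apart. Of all FPKM, ribosomal RNA genes took 8.14% to 10.5% in the KDM4B-labelled libraries and 0.144% to 0.473% in the vector libraries, with vector replicate 1 the highest of the latter. Over the 12148 genes tested, the log2 fold change had a median of -0.22 as deposited and -0.01 after each library was divided by its median of ratios, here called scaling. Changes are therefore given on both scales, and the part of ribosomal RNA in them was not tested. All 9 luminal prostate markers were expressed, summing to between 1687 and 1757 FPKM in KDM4B-labelled libraries and between 4261 and 4441 in the vector libraries. Of the fibroblast, immune, endothelial and basal markers analysed, only COL1A1 and CD68 averaged 1 FPKM or more. The fibroblast markers summed to 3.06 to 3.21 FPKM against 2.57 to 2.70 in the vector libraries, the immune markers to 1.77 to 2.03 against 2.07 to 2.39, the endothelial markers to 0.39 to 0.45 against 0.85 to 1.01, and KRT14, the basal marker analysed, to 0.05 to 0.15 against 0.10 to 0.41. The part of other cell types in the results was not tested, and in such bulk samples fewer cells of a type and less RNA per cell cannot be told apart.

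The 10 genes did not move as a block. ATF3, KLF4, JUND, JUN and KLF6 fell in the KDM4B-labelled libraries, JUNB rose, and IER2 was level as deposited. FOS and EGR1, both scarce, were higher, and FOSB was near its vector level. Of the 10, 7 had a mean of at least 1 FPKM and entered the test (limma on log2(FPKM + 1) over all genes, adjusted p below 0.05). Of these, 5 were called lower and 1 higher as deposited, where 60.3% of all tested genes were called lower and 13.4% higher. After scaling 5 were lower and 2 higher, beside 35.5% and 32.4% of all tested genes. In scaled FPKM the groups did not overlap for any of the 7, with the same 5 lower and 2 higher, where 37.4% of tested genes were lower without overlap and 34.3% higher. The median change of the 7 was -0.87 as deposited and -0.65 scaled. The 9 luminal prostate markers had medians of -0.88 and -0.65, with 6 lower and 3 higher on both scales, and their part in the members' changes was not tested.

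**Figure D1:**
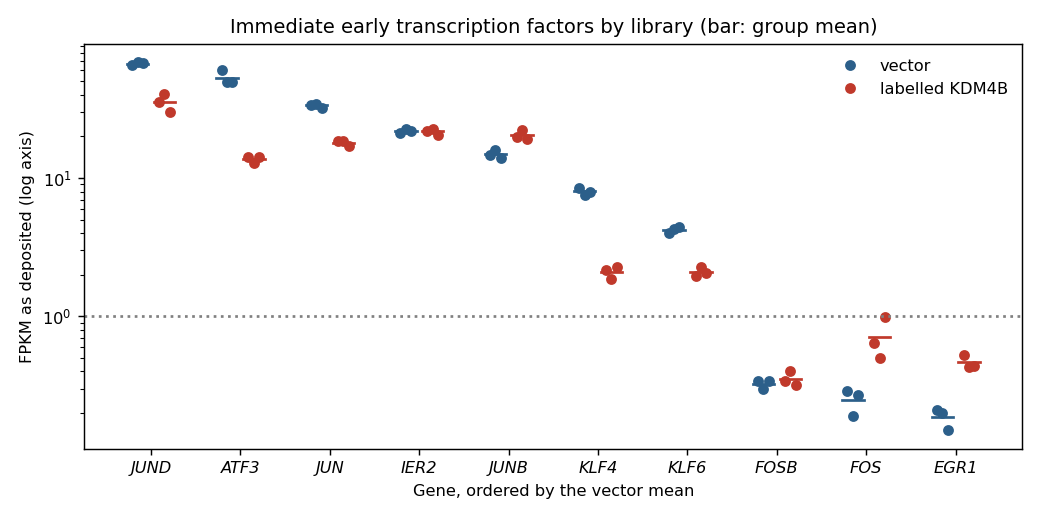
FPKM as deposited (log axis) of the 10 genes in each of 6 libraries, with a bar at each group mean and a dotted line at 1 FPKM. The vector points lie above those labelled KDM4B for JUND, ATF3, JUN, KLF4 and KLF6, below them for JUNB, FOS and EGR1, and among them for IER2 and FOSB.

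The partners of AP-1 come first, beginning with the JUN proteins. JUND, the JUN protein that is usually present in resting cells, had the highest level of the 10 genes in both groups. It measured 35.7, 40.3 and 30.2 FPKM in KDM4B-labelled libraries and 66.0, 68.7 and 67.4 FPKM in the vector libraries. The groups did not overlap, and KDM4B replicate 4 was the lowest library. JUND was thus 1.90-fold lower in mean FPKM (1.63-fold after scaling), with a log2 fold change of -0.92 (SE 0.079; limma, adjusted p = 9.65e-07) and of -0.69 scaled (SE 0.075; limma, adjusted p = 1.76e-05).

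JUN, the AP-1 subunit that activates its own promoter, measured 18.5, 18.5 and 16.9 FPKM in KDM4B-labelled libraries and 34.0, 34.5 and 32.4 FPKM in the vector libraries. Every KDM4B-labelled library was below every vector library, and the spread within each group was small. The log2 fold change was -0.87 (SE 0.047; limma, adjusted p = 2.09e-08) and -0.65 scaled (SE 0.045; limma, adjusted p = 6.56e-07). Only 5.36% of tested genes had a lower scaled change than JUN, and 4.63% a lower one than JUND.

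JUNB, a JUN protein that often opposes JUN at target genes, went the other way. It measured 19.8, 22.2 and 19.3 FPKM in KDM4B-labelled libraries and 14.6, 15.98 and 13.9 FPKM in the vector libraries, without overlap. JUNB rose by a log2 fold change of 0.43 (SE 0.062; limma, adjusted p = 6.06e-05) and of 0.65 scaled (SE 0.057; limma, adjusted p = 3.41e-06). Its scaled change lay above that of 96.2% of tested genes.

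Because the JUN genes moved apart, their makeup differed between the groups in a way that no scaling between libraries can alter. JUNB made up 26.8%, 27.4% and 29.0% of the summed JUN, JUNB and JUND FPKM in KDM4B-labelled libraries and 12.8%, 13.4% and 12.2% in the vector libraries. JUND made up 47.8% ± 2.21 against 58.2% ± 0.983 (SD, n = 3 each), and JUN 24.4% ± 1.43 against 29.0% ± 0.593 (SD, n = 3 each). The FPKM of JUNB was 1.07, 1.20 and 1.14 times that of JUN in the KDM4B-labelled libraries and 0.430, 0.463 and 0.429 times in the vector libraries. All shares separated the groups without overlap. The exact permutation test, two-sided, gave p = 0.1 for each of the 4 shares computed (0.1 after adjustment over them), the smallest that 3 against 3 libraries allow.

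**Figure D2:**
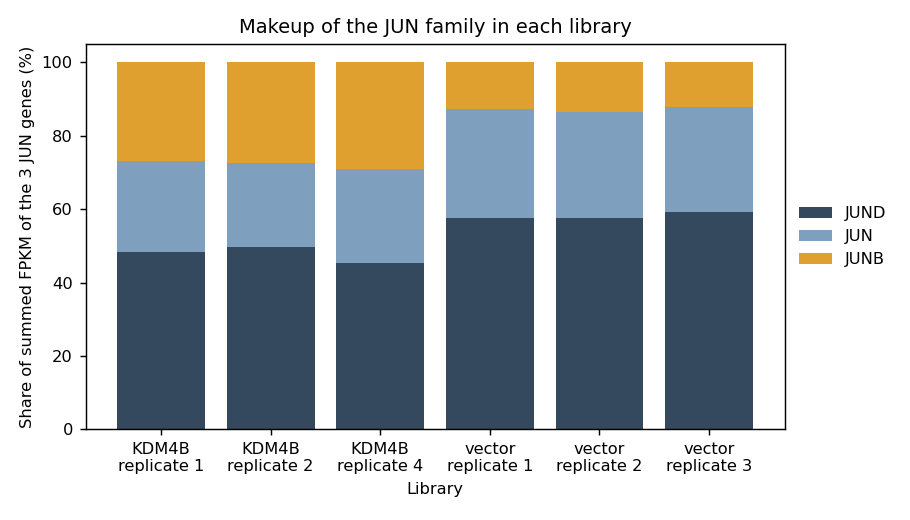
Share of each gene in the summed FPKM of JUN, JUNB and JUND, in percent, as a stacked bar per library. JUNB takes 26.8% to 29.0% in the KDM4B-labelled libraries and 12.2% to 13.4% in the vector libraries.

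FOS and FOSB, FOS family partners of the JUN proteins, were scarce. Their relative FOSL2, which also pairs with JUN proteins, was more abundant, at 9.57 and 7.74 FPKM on average in KDM4B-labelled and vector libraries. FOS measured 0.64, 0.50 and 0.99 FPKM in KDM4B-labelled libraries and 0.29, 0.19 and 0.27 FPKM in the vector libraries. The groups did not overlap, and KDM4B replicate 4 was the highest. FOSB measured 0.34, 0.40 and 0.32 FPKM against 0.34, 0.30 and 0.34 FPKM, and these groups overlapped.

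Neither passed the filter of 1 FPKM, so they were tested in the alternative with a mean of at least 0.1 FPKM, where 13.5% of 15088 genes were called higher. FOS was called higher there with a log2 fold change of 0.44 (SE 0.098; limma, adjusted p = 0.00289), and so it was after scaling (0.51; limma, adjusted p = 0.00233), where 29.6% of genes were called higher. FOSB was not called on either scale (log2 fold change 0.03 and 0.09; limma, adjusted p = 0.681 and 0.202). The pseudocount of 1 shrinks such low values: with a pseudocount of 0.1 the FOS change was 1.18, for a ratio of mean FPKM of 2.84.

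FOS took 65.3%, 55.6% and 75.6% of the summed FPKM of FOS and FOSB in the KDM4B-labelled libraries and 46.0%, 38.8% and 44.3% in the vector libraries (exact permutation test, two-sided, p = 0.1, the smallest possible). The FOS and FOSB sum was 0.90 to 1.31 FPKM against 0.49 to 0.63 FPKM, while the JUN, JUNB and JUND sum was 66.4 to 81.0 FPKM against 114 to 119 FPKM. In every library the JUN transcripts thus far outnumbered those of FOS and FOSB per length.

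EGR1, a zinc finger factor induced with FOS through serum response factor, was also scarce. It measured 0.53, 0.43 and 0.44 FPKM in KDM4B-labelled libraries and 0.21, 0.20 and 0.15 FPKM in the vector libraries. All 3 KDM4B-labelled libraries were above all vector libraries, and EGR1 was called higher with the lower filter (log2 fold change 0.31, SE 0.059; limma, adjusted p = 0.00123; 0.36 after scaling, adjusted p = 0.000682). The ratio of its mean FPKM was 2.5 (2.93 after scaling), more than the scale log2(FPKM + 1) shows at such levels. The deposited FPKM are rounded to 2 decimals, which is a coarse step at this level.

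ATF3, a stress-induced factor of the ATF and CREB family that mostly represses, fell about as much as KLF4, and these falls were the largest of the 10. It measured 14.3, 13.0 and 14.3 FPKM in KDM4B-labelled libraries and 60.5, 49.9 and 49.6 FPKM in the vector libraries. The groups were far apart, and vector replicate 1 was the highest library. ATF3 was 3.85-fold lower in mean FPKM (3.28-fold after scaling), with a log2 fold change of -1.87 (SE 0.072; limma, adjusted p = 1.41e-09) and of -1.65 scaled (SE 0.079; limma, adjusted p = 4.94e-08). Only 0.469% of tested genes had a lower scaled change. The table lists 6 RefSeq transcripts for ATF3 under 1 value, so the use of its separate starts cannot be read from it.

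KLF4, a zinc finger factor of epithelial differentiation and growth arrest, fell 3.82-fold in mean FPKM (3.26-fold after scaling), beside 3.85-fold and 3.28-fold for ATF3. It measured 2.16, 1.87 and 2.27 FPKM in KDM4B-labelled libraries and 8.55, 7.58 and 7.95 FPKM in the vector libraries, without overlap. The log2 fold change was -1.54 (SE 0.067; limma, adjusted p = 3.80e-09) and -1.36 scaled (SE 0.071; limma, adjusted p = 8.71e-08), and 0.840% of tested genes had a lower scaled change.

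KLF6, a related factor with splice variants known from prostate cancer, measured 1.96, 2.28 and 2.06 FPKM in KDM4B-labelled libraries and 4.0, 4.27 and 4.44 FPKM in the vector libraries. The groups did not overlap. The log2 fold change was -0.76 (SE 0.066; limma, adjusted p = 1.03e-06) and -0.59 scaled (SE 0.060; limma, adjusted p = 1.22e-05). At such levels the scale log2(FPKM + 1) understates the change, which was 2.02-fold in mean FPKM (1.72-fold after scaling).

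IER2, a small nuclear protein induced with FOS, is the member whose call depended on the scale. It measured 22.0, 22.8 and 20.6 FPKM in KDM4B-labelled libraries and 21.1, 22.8 and 21.9 FPKM in the vector libraries, and the groups overlapped. As deposited its log2 fold change was -0.01 (SE 0.049; limma, adjusted p = 0.889). After scaling it was 0.21 (SE 0.044; limma, adjusted p = 0.00162), called higher.

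**Figure D3:**
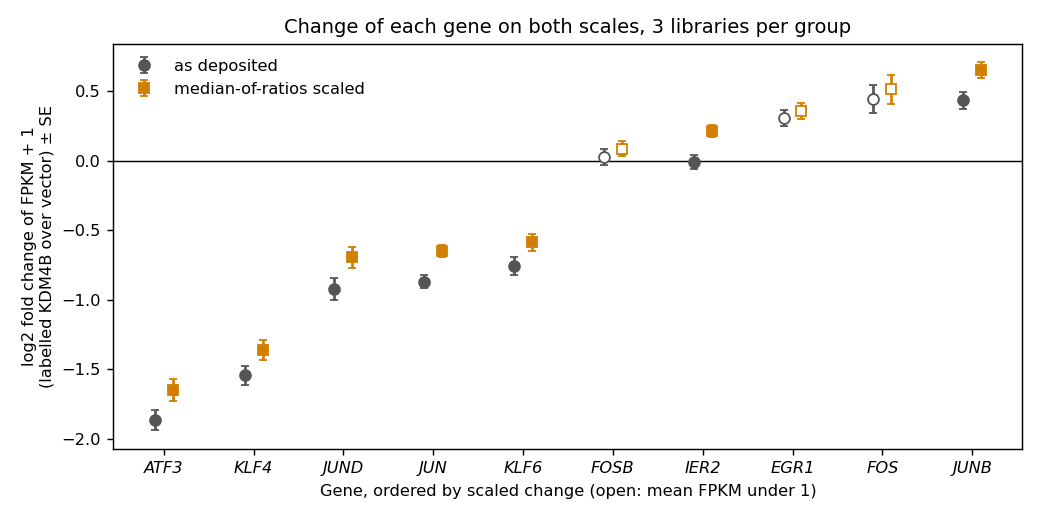
The log2 fold change of FPKM + 1 (KDM4B-labelled libraries over vector) with its SE for each gene, as deposited (circles) and after scaling (squares). Open symbols are FOS, FOSB and EGR1, fitted with the lower filter, and ATF3 and KLF4 lie lowest at -1.87 and -1.54 as deposited.

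The order of levels differed between the groups. In the vector libraries JUND (67.4 FPKM) was followed by ATF3 (53.3), JUN (33.6), IER2 (21.9), JUNB (14.8), KLF4 (8.03) and KLF6 (4.24), with FOSB, FOS and EGR1 last. There the ranges of FOS and EGR1 overlapped, while all other neighbours were apart. In the KDM4B-labelled libraries, JUND (35.4 FPKM) was followed by IER2 (21.8), JUNB (20.4), JUN (17.97) and ATF3 (13.9), then KLF4 and KLF6 at 2.10 each, FOS, EGR1 and FOSB. There IER2 and JUNB overlapped, as did KLF4 and KLF6, and FOS and EGR1. ATF3 moved from the second to the fifth place.

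Reads in the deposited splicing tables give a second view of KLF4, KLF6 and ATF3, the members with an event there. These reads come from the same libraries as the FPKM, so they are not independent evidence of a change. Each event has 1 read number per library, with no separate numbers for its splice forms. Which reads it counts is not given in the sources used, so it gives no measure of the choice of form. The skipped exon event of KLF4 (973 bases, chr9:110249576-110250548) held 123, 105 and 125 reads in the KDM4B-labelled libraries and 558, 479 and 441 reads in the vector libraries. This is a large gap without overlap, called lower with a log2 fold change of -1.84 (edgeR quasi-likelihood test, adjusted p = 1.37e-21), where 18.8% of 40085 skipped exon events were called lower.

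The retained intron event of ATF3 (chr1:212791469-212794117, around an intron of 1123 bases) held 154, 120 and 142 reads against 605, 497 and 469 reads in the vector libraries. It was called lower too, with a log2 fold change of -1.64 (edgeR, adjusted p = 1.81e-08), where 19.3% of 862 retained intron events were called lower. Per FPKM of the gene the event held 9.27 to 10.8 reads in the KDM4B-labelled libraries and 9.45 to 10.0 in the vector libraries, so event reads and gene level kept nearly the same ratio.

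The alternative 5′ splice site event of KLF6 (chr10:3823833-3824406) concerns an exon of 574 bases with a shorter form of 448, 126 bases less. It held 12, 31 and 31 reads in the KDM4B-labelled libraries and 54, 56 and 49 reads in the vector libraries. KDM4B replicate 1 was low at 6.12 reads per FPKM, beside 11.04 to 15.05 in the other libraries. The event was called lower with a log2 fold change of -0.85 (edgeR, adjusted p = 0.0179), where 13.6% of 1321 such events were called lower. The call was lost without KDM4B replicate 1 (-0.52; edgeR, adjusted p = 0.177), without vector replicate 2 (0.0664) or 3 (0.0514), and with DESeq2 (adjusted p = 0.0589). These 3 positions are as deposited with starts counted from 1. They lay outside their genes on GRCh38, the build that the submitters' notes give, so the build of these positions is uncertain.

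**Figure D4:**
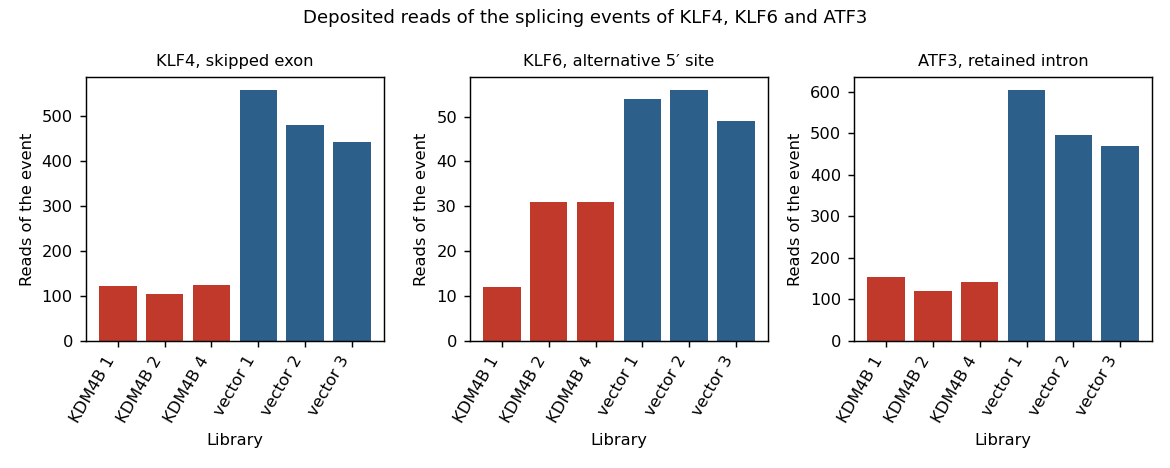
Deposited reads per library of the KLF4, KLF6 and ATF3 events, as bars from 0, with KDM4B-labelled libraries in red and vector libraries in blue. Each red bar is lower than each blue bar of the same gene, and KDM4B replicate 1 has only 12 reads for KLF6.

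Other genes of the pathway were taken from lists by function, chosen with earlier results of these data known. Their counts are to be read against all tested genes, of which 13.4% were called higher and 60.3% lower as deposited, and 32.4% and 35.5% after scaling. Among 13 tested relatives of AP-1 and ATF proteins, 2 were higher and 11 lower as deposited (2 and 10 after scaling), with a median of -0.44 (-0.23 scaled). FOSL2, a FOS relative, rose from 7.74 ± 0.37 to 9.57 ± 0.35 FPKM (SD, n = 3 each; log2 fold change 0.27, and 0.48 scaled). ATF2, a partner of JUN, fell from 10.9 to 7.81 FPKM (-0.44, and -0.23 scaled), and ATF6, which senses endoplasmic reticulum stress, from 18.5 to 8.32 FPKM (-1.06, and -0.85 scaled). CREB3, ATF7 and MAFK also fell on both scales. CREB1, which binds the cyclic AMP element, was called lower only as deposited (-0.18, and 0.02 scaled).

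Of 26 other immediate early genes tested, 11 were higher and 11 lower as deposited (14 and 7 after scaling), beside 13.4% and 60.3% of all tested genes (32.4% and 35.5% after scaling). NR4A1, an orphan nuclear receptor, measured 5.16, 5.81 and 5.22 FPKM in KDM4B-labelled libraries and 9.52, 9.67 and 9.22 FPKM in the vector libraries (log2 fold change -0.71, and -0.51 scaled). MYC fell from 171 to 125 FPKM (-0.44, and -0.21 scaled). RHOB, a small GTPase, rose from 58.6 to 78.8 FPKM (0.42, and 0.64 scaled). MCL1, a survival factor of the BCL2 family, was at 53.1 against 52.0 FPKM and was called higher only after scaling (0.03, and 0.25 scaled). NFKBIA was called lower as deposited and higher after scaling (-0.12 and 0.11). IER3 was called only after scaling (0.06, and 0.21 scaled), and EGR3 was listed at 0.01 to 0.06 FPKM in all libraries.

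Upstream of these genes, of 25 kinases, receptors and RAS proteins, 5 were higher and 16 lower as deposited and 10 higher and 7 lower after scaling, with medians of -0.14 and 0.08. The lower calls as deposited and both kinds after scaling were near the shares of all tested genes (60.3% lower as deposited, 32.4% higher and 35.5% lower after scaling), so the counts show nothing about this list. HRAS rose from 38.0 to 46.7 FPKM (0.29, and 0.51 scaled) and MAP2K1 fell from 56.1 to 43.4 FPKM (-0.36, and -0.14 scaled). MAP2K2 was lower as deposited and higher after scaling (-0.10 and 0.12). SRF, the serum response factor, measured 14.7 ± 0.75 against 18.02 ± 0.44 FPKM (SD, n = 3 each), a fall as deposited that was not called after scaling (-0.28, and -0.06 scaled). Its ETS partner ELK4 fell on both scales, from 25.8 to 9.94 FPKM (-1.29, and -1.07 scaled). Of 16 tested genes of serum response factor, its partners and its targets, 5 were higher and 7 lower (7 and 2 after scaling). Among them ACTB rose (0.20, and 0.43 scaled), MYH9 rose (0.16, and 0.39 scaled), TAGLN2 fell (-0.34, and -0.11 scaled) and ACTG1 was lower only as deposited (-0.30, and -0.07 scaled).

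Genes that end the response came in 2 lists, and 60.3% of all tested genes were called lower as deposited and 35.5% after scaling. Of 15 feedback phosphatases and corepressors, 2 were higher and 8 lower (5 and 4 after scaling). DUSP1, a phosphatase that inactivates mitogen-activated kinases and is itself induced early, measured 7.51, 7.56 and 7.27 FPKM in KDM4B-labelled libraries and 13.0, 12.1 and 12.2 FPKM in the vector libraries (log2 fold change -0.67, and -0.46 scaled). NAB2, a corepressor of EGR1, was lower only as deposited (-0.20, and -0.03 scaled), as were DUSP16 and RASA1, and DUSP14 was called higher only after scaling (-0.09, and 0.12 scaled). Of 19 genes that bind or degrade short-lived transcripts, 1 was higher and 10 lower (9 and 4 after scaling). ZFP36, which targets AU-rich transcripts for decay, fell from 7.92 to 5.45 FPKM (-0.47, and -0.27 scaled), CNOT1 and KHSRP were called higher only after scaling (0.24 and 0.21), as was HNRNPD (0.15), and CNOT7 was lower only as deposited (-0.26).

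The family of KLF and SP factors beside KLF4 and KLF6 gave 0 higher and 11 lower of 11 tested genes as deposited, and 0 and 8 after scaling, with medians of -0.49 and -0.31, where 60.3% of all tested genes were called lower as deposited and 35.5% after scaling. These counts hold KLF5, which passed the filter of 1 FPKM only through its level in the vector libraries, so its call as lower partly reflects the filter. They leave out KLF7, which averaged under 1 FPKM (0.753 against 0.417 FPKM). With the lower filter KLF7 was called higher (0.31, limma, adjusted p = 0.000947; 0.39 scaled, adjusted p = 0.000253). KLF8, also under the filter, was not called there, and KLF12 was at 0.01 or 0.02 FPKM. KLF9 fell from 19.5 to 13.0 FPKM (-0.55, and -0.33 scaled), SP1 from 17.1 to 11.6 FPKM (-0.52, and -0.31 scaled), SP3 from 20.2 to 15.2 FPKM (-0.39, and -0.18 scaled) and KLF5 from 1.60 to 0.91 FPKM (-0.44, and -0.32 scaled), while KLF16 was lower only as deposited (-0.18). All 13 stress factors beside ATF3 fell on both scales, with medians of -1.09 and -0.87, beside the same 60.3% and 35.5% of all tested genes. ATF4, the activator of ATF3 in amino acid stress, measured 352 ± 11.1 against 647 ± 29.1 FPKM (SD, n = 3 each), and DDIT3, which encodes CHOP, 37.1 ± 2.98 against 109 ± 13.7 FPKM. TRIB3, DDIT4 and HSPA5 were also lower. Earlier results on these data had already shown the fall of stress genes.

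Of 21 genes linked to AP-1 as targets, 7 passed the filter, 1 higher and 3 lower (3 and 2 after scaling), too few to set against the shares of all tested genes. CCND1, which encodes cyclin D1, rose from 56.7 to 63.8 FPKM (0.17, and 0.39 scaled) and SQSTM1, an autophagy receptor, fell from 251 to 143 FPKM (-0.81, and -0.58 scaled). S100A11 was lower only as deposited (-0.29), and TXNRD1 higher only after scaling (0.17).

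**Figure D5:**
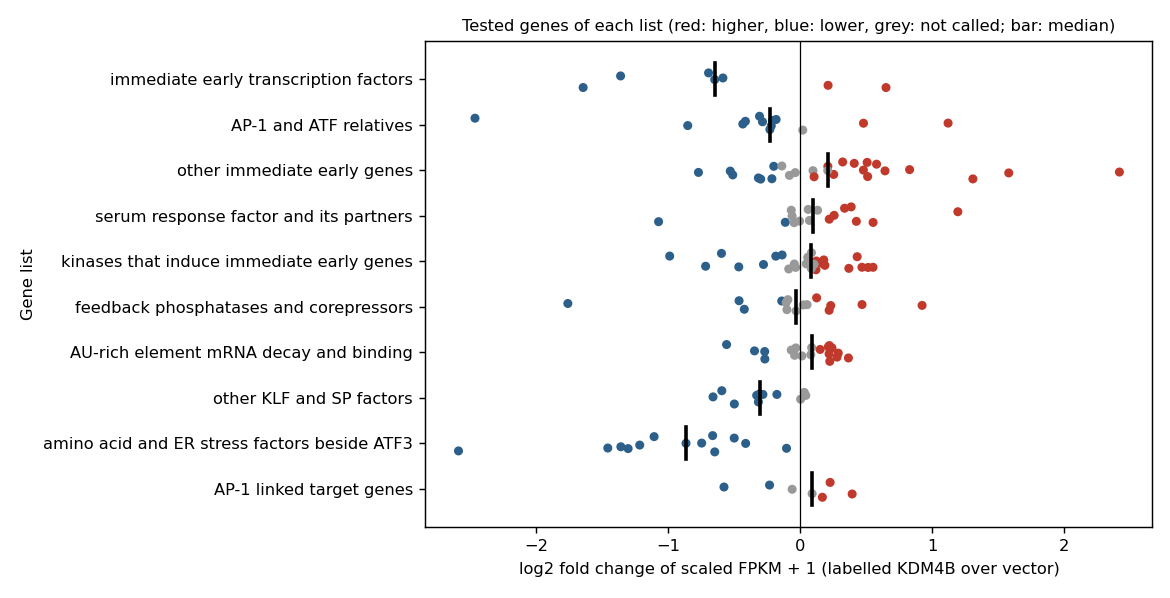
Scaled log2 fold change (KDM4B-labelled libraries over vector) of every tested gene in the members and the 9 pathway lists, without the cell type markers, one point per gene, with a bar at the list's median. The members, the other KLF and SP factors and the stress factors have medians of -0.65, -0.31 and -0.87, and the other lists drawn lie between -0.23 and 0.21.

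The genes whose scaled profile over the 6 libraries was nearest to that of ATF3 were CTAGE5, ARHGEF2 and MAPK6 (root mean square differences of 0.053, 0.056 and 0.080 on the log2 scale). Nearest to KLF4 were CCPG1, SLC7A11 and SLC25A36 (0.041, 0.047 and 0.048), and nearest to JUNB, the tested member with the largest rise, were COL18A1, FAM101B and RHOB (0.016, 0.027 and 0.030). The 6 libraries fall into 2 groups, and this likeness is a description over them.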

How the data were processed

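RNA was sequenced from 6 LNCaP libraries, 3 per group. Trizol extraction and standard Illumina libraries are given per the labels' protocols. The authors deposited FPKM per gene and whole-number read counts per splicing event, per the file headers; the submitters' processing notes name HISAT, StringTie, Cufflinks, GRCh38 and hg38 without a role, and no annotation, strand setting or splicing caller is named there, so reads of genes that overlap on opposite strands may not be separated. FPKM carry no read totals. Reads of the most-read skipped exon event per FPKM, over 5862 genes, put the relative depth at 0.975 to 1.02. Skipped exon reads summed to 14212396 to 14787321 in KDM4B-labelled libraries and 16451082 to 17021204 in vector libraries, over events that share reads. The cause of this gap was not tested.

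FPKM were tested with limma 3.58.1 (R 4.3.3, with its intensity trend) after log2(FPKM + 1), keeping genes that averaged at least 1 FPKM, two-sided, with Benjamini-Hochberg adjustment over all tested genes at 0.05. Event counts with at least 10 reads in all were tested with edgeR 4.0.16 (TMM, quasi-likelihood), per table, with DESeq2 1.42.0 as an alternative. Scaling used the median of ratios over genes above 0 in every library. Replicates differed beyond sampling noise (chi-square divided by its degrees of freedom between 2.61 and 3.30), so none was a copy. The code was tested on simulated data. The members, lists and tests were chosen with earlier results of these data known. Besides the members, genes were named by the highest vector mean in each list, up to 4, plus 15 fixed regulators; 1 gene so named is not reported here. Mutually exclusive exon events held no member.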

Additional observations from a re-analysis of the deposited data

How the results depend on the processing

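The 5 falls and the JUNB rise kept their direction and their call under every alternative run: pseudocounts of 0.1 and 0.5, filters, 3 scalings, limma without a trend, the block and each library left out. IER2 turned from -0.01 to 0.21 with median-of-ratios scaling (also with the lower filter), 0.22 with upper quartile scaling and 0.22 when libraries were brought to 1 sum without non-polyadenylated RNA. The count of members called higher went from 1 to 2 under each of these scalings, to 3 with no filter, with the filter of 0.1 FPKM and with that filter and a pseudocount of 0.1, and to 4 with that filter and scaling. Over all genes, 1628 higher became 3934, 4095 and 4015 under the 3 scalings and 4462 with the lower filter and scaling, and 7323 lower became 4317, 4138, 4215 and 4641. Alternatives that join the lower filter with scaling, a pseudocount or a left-out library were chosen after seeing the data. FOS and EGR1 kept their calls in each of those. The KLF6 event was at -0.85 with edgeR and DESeq2 alike, its DESeq2 call was lost, and leaving out 1 library gave -1.06 to -0.52; the cause was not tested.

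Replicate numbers are shared for 2 pairs only, and their deviations correlated at -0.02 and 0.14. Pairs with unlike numbers ran from -0.155 to 0.104. With 3 libraries per group these values cannot tell whether libraries of the same number were handled together. With the replicate block 8459 genes were called in place of 8951, and 6 members as before.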

Other observations

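Some genes of the lists stood far from their list, and are given here as values chosen after they were seen. MAF, an AP-1 related factor, measured 1.30 ± 0.20 FPKM in the KDM4B-labelled libraries and 13.4 ± 1.20 in those with vector (SD, n = 3 each). DUSP4, a nuclear phosphatase of mitogen-activated kinases, measured 1.75 ± 0.15 against 9.56 ± 0.64 FPKM. ID1, an inhibitor of helix-loop-helix factors, measured 15.9 ± 3.50 against 2.58 ± 0.52 FPKM, and BTG2, an antiproliferative early gene, 26.6 ± 0.16 against 11.9 ± 0.37 FPKM. All 4 passed the test as deposited and after scaling (limma, adjusted p between 1.92e-09 and 1.09e-07 scaled for MAF, DUSP4, ID1 and BTG2).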
